A study of Caenorhabditis elegans with 6 samples.

Results

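The V0 sector of the vacuolar-type proton ATPase (V-ATPase) is described here through its 10 genes in Caenorhabditis elegans, unc-32, vha-1 to vha-7, vha-16 and vha-17. They were found by symbol and gene identifier among 47063 genes of the deposited tables, where all 10 had a row, and all 10 had enough counts to be fitted. They were chosen by the measured normalized counts and FPKM, in which vha genes ran higher in the dopamine columns. The difference between the cell types is therefore given below as a description, with no p-value for any vha gene. RNA had been sequenced from dopamine neurons (3 libraries) and from serotonin neurons (3 libraries), all from strain FQ939 of wild-type genotype, with a mixture of embryos and larvae as starting material. All 6 libraries share strain, genotype and stage, and no treatment is listed for either group. Which promoters marked the cells and how these were collected is not stated in the labels. In bulk libraries such as these, fewer cells of a type and less RNA per cell cannot be told apart.

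The V-ATPase is a rotary pump that spends ATP to move protons into vesicles and lysosomes or out of the cell. The cytosolic V1 sector splits ATP, and the membrane V0 sector carries the protons through a ring of c subunits that turns against the a subunit. In neurons the pump acidifies synaptic vesicles, and transporters such as the vesicular monoamine transporter exchange these protons for dopamine or serotonin. Worms have several a subunit genes. In published work unc-32 is the form of neurons, vha-5 that of the epidermis and excretory canal, vha-6 that of the apical intestinal membrane, and vha-7 has been placed in the epidermis and the uterus.

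The labels were checked on cell identity genes. The summed normalized counts of 5 dopamine markers, dat-1 and cat-2 among them, lay between 21531 and 40131 in dopamine libraries, against 1254 to 1555 in serotonin libraries. For 4 serotonin markers, tph-1 and mod-5 among them, the sums were 567 to 878 in dopamine libraries, against 6256 to 8564 in serotonin libraries. That contrast came from tph-1 and mod-5. The remaining markers, lim-4 (log2 difference -0.33, limma adjusted p = 0.816) and unc-86 (-0.19, limma adjusted p = 0.749), overlapped between groups. Reads assigned to genes numbered 20418663 to 27823600 per dopamine library and 20457040 to 31559049 per serotonin library. Ribosomal RNA genes took 43.9% of them in dopamine 1 and 45.0% in serotonin 3, while in the remaining 4 libraries they took 13.7% to 21.5%. Markers of pharyngeal muscle (myo-1, myo-2, tnc-2 and tni-4) summed to 313 to 597 normalized counts in dopamine libraries and to 30208 to 55427 in serotonin libraries. Markers of body wall muscle (unc-54, unc-15, myo-3 and tnt-2) summed to 28339 to 48935 in dopamine libraries and to 16370 to 24919 in serotonin libraries. Of these 4, the myosin heavy chain gene unc-54 was higher in dopamine libraries (32487 against 14123 on average in serotonin libraries, log2 difference 1.17, limma adjusted p = 0.0244) and the paramyosin gene unc-15 lower (-1.24, limma adjusted p = 0.0229). Most of this sum was unc-54. Neither myo-3 (716 in dopamine against 710 in serotonin libraries, limma adjusted p = 0.842) nor tnt-2 (260 against 158, limma adjusted p = 0.815) passed. Reads of muscle genes were thus counted in both groups beside those of neuronal genes. Whether they came from muscle cells was not tested. Among these markers unc-54 moved in the direction of most V0 genes and unc-15 in the opposite one, and the part of muscle in the V0 values was not tested. Unless FPKM is named, values are normalized counts, and log2 differences were taken as dopamine minus serotonin after log2(normalized count + 1), with SE from limma.

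Within V0 the genes split in 2 ways. The 7 genes unc-32, vha-1, vha-2, vha-3, vha-4, vha-16 and vha-17 averaged higher in dopamine libraries, with log2 differences of 0.71 to 1.22. The 3 remaining a subunit genes, vha-5, vha-6 and vha-7, were scarce in both cell types, with log2 differences of -1.55 to -1.13. All dopamine libraries exceeded all serotonin libraries for 5 of the 10 genes, a pattern shown by 12.3% of the 15750 genes tested. Every dopamine library lay below every serotonin library for 1 of the 10, against 15.1% of the genes tested. Because the direction was part of the choice, nothing is read from these shares. The median over the 10 was 0.77, and that of all genes tested was -0.07.

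**Figure D1:**
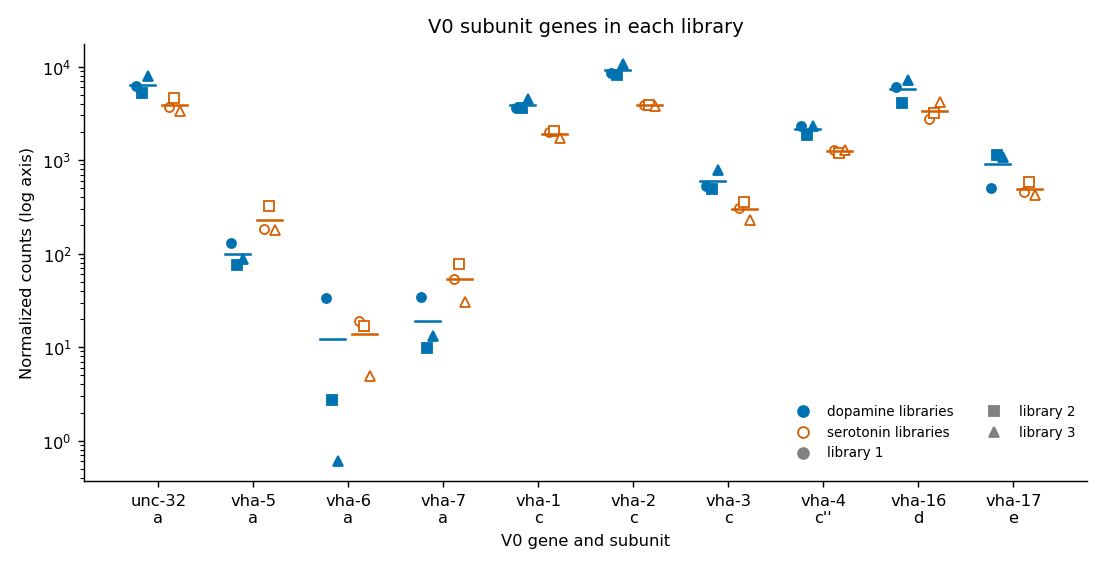
Normalized counts (log axis) of the 10 V0 genes, with the subunit letter under each name. Filled blue symbols are dopamine libraries and open orange ones serotonin libraries, the symbol shape gives the library number, and each bar is the mean of 3. The genes unc-32, vha-1, vha-2, vha-3 and vha-4 show no overlap with the dopamine libraries on top, and vha-5 none with them below. For vha-6 and vha-7, dopamine 1 stands above the other dopamine libraries.

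The a subunit holds the proton half-channels and decides to which membrane the pump goes. The gene unc-32 (WBGene00006768, chromosome III, 8905615 to 8911756, plus strand) had 6129, 5175 and 7832 normalized counts in dopamine 1, 2 and 3, and 3677, 4583 and 3378 in serotonin 1, 2 and 3. All 3 dopamine values were above the serotonin values, with dopamine 2 and serotonin 2 nearest to each other. The log2 difference was 0.71 (SE 0.24), a fold of 1.63.

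The gene vha-5 (WBGene00006914, chromosome IV, 8303968 to 8307371, plus strand) had 131, 75.2 and 88.1 normalized counts in the dopamine libraries and 182, 325 and 180 in the serotonin libraries. It was the member whose dopamine libraries all lay below the serotonin libraries (log2 difference -1.20, SE 0.42), and serotonin 2 was its highest library. Markers of the excretory canal summed to 2637 to 4316 in dopamine libraries and to 1570 to 3080 in serotonin libraries, of which serotonin 2 was highest. Most of this sum came from nhr-31, at 2232 to 3674 in dopamine libraries and 1138 to 2337 in serotonin libraries, exc-4 had 219 to 441 over the 6 libraries, and the canal aquaporin gene aqp-8 had at most 23. The canal marker ceh-6 had 83.4 to 201 in dopamine libraries and 108 to 355 in serotonin libraries, highest in serotonin 2 (log2 difference -0.34, limma adjusted p = 0.740). Markers of the epidermis, the other tissue in which vha-5 is known, summed to 392 to 638 in dopamine libraries and to 250 to 575 in serotonin libraries, again with serotonin 2 the highest of its group. Most of the epidermis sum came from nhr-25, at 238 to 446 in dopamine libraries and 136 to 456 in serotonin libraries, where serotonin 2 was highest. Over the 6 libraries bli-1 had 33 to 96.9 and elt-3 17.2 to 137. Of the cuticle collagen genes also listed, dpy-7 had at most 13.55 and col-19 at most 10.61, while rol-6 and dpy-13 stayed below 10. The part of these tissues in the vha-5 values was not tested.

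The gene vha-7 (WBGene00006916, chromosome IV, 12640462 to 12650652, plus strand) had 34.4, 9.81 and 13.3 normalized counts in dopamine libraries and 53.9, 77.5 and 30.7 in serotonin libraries. Dopamine 1 lay above serotonin 3, so the groups overlapped (log2 difference -1.55, SE 0.73). The intestinal gene vha-6 (WBGene00006915, chromosome II, 11435210 to 11438452, minus strand) rested on 32, 5 and 1 reads in dopamine 1, 2 and 3 and on 49, 34 and 4 reads in serotonin 1, 2 and 3. Its normalized counts were 33.4, 2.72 and 0.60 in dopamine libraries and 19.3, 17 and 4.91 in serotonin libraries, so the highest and the 2 lowest values were all in dopamine libraries. Its log2 difference of -1.13 had an SE of 1.30, was -0.20 by DESeq2 on reads and turned to 0.27 after quantile normalization. Without dopamine 1 every dopamine library lay below every serotonin library for vha-6 and vha-7 too, which made 3 such members, with log2 differences of -2.40 and -2.05. Fewer libraries separate more easily, the share over all genes was not counted for that setting, and nothing is read from the 3. Without dopamine 3 the vha-6 difference was -0.19, and on the log2(FPKM + 1) scale those of vha-6 and vha-7 were -0.055 and -0.41.

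Markers of the intestine, the known tissue of vha-6, were also measured. The 10 markers summed to 489 to 671 in dopamine libraries, highest in dopamine 1, and to 441 to 894 in serotonin libraries. The largest of the 10 was cpr-1, at 356 ± 52.5 in dopamine libraries and 391 ± 331 in serotonin libraries (SD, n = 3 each). Over the 6 libraries vit-2 had 22.1 to 168, vit-6 14.48 to 140, act-5 11.46 to 84.5 and ifb-2 0.6 to 53.9. The markers asp-1, elt-7 and pept-1 had at most 26.7, 19.66 and 13.55. Only ges-1 and elt-2, which define the intestine, stayed below 10 in every library. The part of intestine in the vha-6 values was not tested.

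Levels of different genes were compared per length, as FPKM within each library. The choice rested on the same tables, but on differences between the cell types and not on 1 member's level against another's. By this measure unc-32 supplied 96.3%, 98.0% and 98.5% of the summed a subunit FPKM in dopamine 1, 2 and 3, and 92.5%, 90.3% and 93% in serotonin 1, 2 and 3. The share of vha-5 was 1.35% to 2.52% in dopamine libraries and 5.58% to 7.81% in serotonin libraries. The shares of vha-7 were 0.153% to 0.508% in dopamine libraries and 0.779% to 1.43% in serotonin libraries, and those of vha-6 were 0.0102% to 0.699% in dopamine libraries and 0.178% to 0.651% in serotonin libraries. The neuronal form thus held most of the a subunit message in all 6 libraries, and the difference in its share between cell types belongs to the contrast that chose the genes and was not tested.

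On the scale of log2(FPKM + 1), unc-32 exceeded vha-5 by 4.24 ± 0.87, vha-6 by 5.69 ± 0.53 and vha-7 by 5.47 ± 0.64 (SD over 6 libraries). Each held in 6 of 6 libraries, with an adjusted p = 0.0313 by a two-sided exact sign-flip permutation test, adjusted over the 6 pairs of genes compared. That is the smallest p that 64 sign patterns allow. With same-numbered dopamine and serotonin libraries flipped together, as 3 sets, no p below 0.25 can be reached, and the adjusted p of every pair was 0.25. With 3 libraries of 1 cell type no such test can pass, and the means were 5.00 in dopamine and 3.48 in serotonin libraries for unc-32 over vha-5. The added 1 shrinks the differences from vha-6 and vha-7, whose FPKM lay below 1 in every library.

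**Figure D2:**
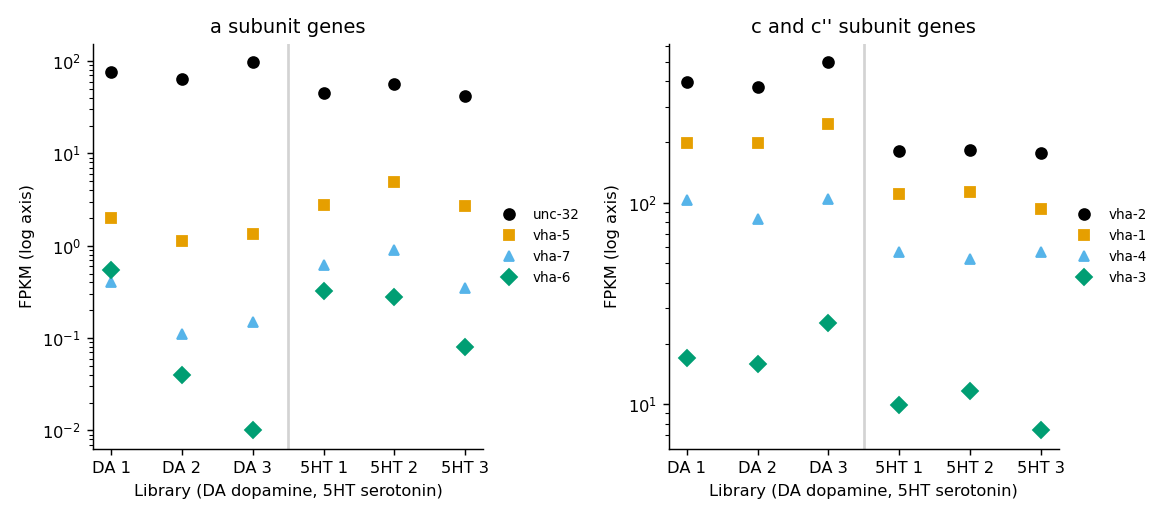
FPKM (log axis) of the a subunit genes (left) and of the c and c'' subunit genes (right) in the 6 libraries, dopamine left of the grey line and serotonin right of it, 1 point per gene and library. The gene unc-32 lies above the other a subunit genes in all 6 libraries, and vha-2 is highest and vha-3 lowest of the c-type genes in all 6.

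The c subunits form the ring that carries protons. The neighbouring genes vha-1 (WBGene00006910, chromosome III, 9781254 to 9781763, plus strand) and vha-2 (WBGene00006911, chromosome III, 9782164 to 9783224, plus strand) are known to be transcribed as an operon. For vha-1, dopamine libraries had 3618, 3615 and 4478 normalized counts and serotonin libraries 2004, 2053 and 1706. The groups were apart, with dopamine 3 highest (log2 difference 1.02, SE 0.23, a fold of 2.03). For vha-2, dopamine libraries had 8510, 8044 and 10688 normalized counts and serotonin libraries 3904, 3925 and 3790. The serotonin values were close together, the dopamine values were all higher, and the log2 difference of 1.22 (SE 0.22, a fold of 2.33) exceeded that of the 9 other members.

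The third c subunit gene, vha-3 (WBGene00006912, chromosome IV, 2315460 to 2315945, minus strand), is known to encode the same protein as vha-2 and to lie in an operon with the V1 gene vha-11. It had 524, 486 and 778 normalized counts in dopamine libraries and 307, 356 and 228 in serotonin libraries (log2 difference 0.99, SE 0.32). Its groups did not overlap, but reads from near-identical coding sequence may have been lost or assigned to the wrong copy, so its count and its split from vha-2 are uncertain. Part of the vha-2 exons (219 bases) also overlaps R10E11.6 on the same strand in the annotation. The other proton-carrying ring gene, vha-4 (WBGene00006913, chromosome II, 7878082 to 7879316, minus strand), encodes the c'' form. It had 2300, 1858 and 2322 normalized counts in dopamine libraries and 1276, 1178 and 1272 in serotonin libraries, again without overlap (log2 difference 0.79, SE 0.24, a fold of 1.73).

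Among the c subunit genes the order within a library was the same in both cell types. In FPKM, vha-2 averaged 422 ± 65.6 in dopamine and 180 ± 3.39 in serotonin libraries, while vha-1 averaged 214 ± 27.3 in dopamine and 105 ± 10.3 in serotonin libraries (SD, n = 3 each). The vha-3 mean was 19.4 ± 5.16 FPKM in dopamine and 9.66 ± 2.1 in serotonin libraries. On the log2(FPKM + 1) scale vha-2 exceeded vha-1 by 0.87 ± 0.14, and vha-3 differed from vha-1 by -3.38 ± 0.16 and from vha-2 by -4.25 ± 0.25 (adjusted p = 0.0313 each, exact sign-flip permutation test, 6 of 6 libraries). A shift shared by all libraries, as lost reads or the length used could give, also yields this p. The test therefore cannot tell such a shift from a difference in level. The sizes of these differences depend on the length used. The deposited FPKM imply 816 bases for vha-1 and 1377 for vha-3, where the annotated exons hold 510 and 486, while the other members with an FPKM above 1 came close to the annotation (ratios of 0.998 to 1.02). With annotated lengths the log2 difference of vha-2 over vha-1 was 0.20, and those of vha-3 from vha-1 and vha-2 were -2.65 and -2.85, each still in the same direction in all 6 libraries.

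The ratio of vha-2 to vha-1, the operon partners, was 1.99, 1.89 and 2.02 in dopamine libraries and 1.65, 1.62 and 1.88 in serotonin libraries in FPKM. All dopamine ratios lay above the serotonin ratios, with dopamine 2 and serotonin 3 nearly equal. With annotated lengths the same ratio was only 1.24, 1.18 and 1.26 in dopamine libraries and 1.03, 1.01 and 1.17 in serotonin libraries. The summed FPKM of vha-1, vha-2 and vha-3 was 7.77, 9.01 and 7.81 times that of the 4 a subunit genes in dopamine libraries, against 6.14, 4.89 and 6.17 times in serotonin libraries. The sizes of both ratios depend on the length used for vha-1 and vha-3. Both come from the contrast that chose the genes and are given as a description.

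The 2 other V0 subunits sit beside the ring. The d subunit gene vha-16 (WBGene00016258, chromosome I, 5079910 to 5082279, minus strand), whose product links the ring to the central stalk, had 5989, 4033 and 7114 normalized counts in dopamine libraries and 2766, 3150 and 4148 in serotonin libraries. Serotonin 3 lay above dopamine 2, so the groups overlapped (log2 difference 0.75, SE 0.27). The e subunit gene vha-17 (WBGene00009882, chromosome IV, 9321801 to 9322525, plus strand), also known as fus-1 for its part in limiting epidermal cell fusion, had 500.2, 1138 and 1085 normalized counts in dopamine libraries and 458, 582 and 428 in serotonin libraries. Dopamine 1 lay within the serotonin range and the other 2 well above it (log2 difference 0.81, SE 0.35, or 1.19 without dopamine 1). Dopamine 1 and serotonin 3, the libraries richest in ribosomal RNA, were the lowest of their groups for vha-17, and the part of RNA quality was not tested.

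The levels were high beside other genes. By mean FPKM in dopamine libraries, vha-2 stood above 99.3% of tested protein-coding genes, vha-1 above 98.5%, vha-16 above 98.0%, vha-4 above 95.7%, unc-32 above 94.5%, vha-17 above 93.9% and vha-3 above 76.9%. In serotonin libraries these shares were 98.2% for vha-2, 96.6% for vha-1, 96.4% for vha-16, 92.3% for vha-4, 91.0% for unc-32, 88.8% for vha-17 and 62.5% for vha-3, the same order. The shares of vha-1 and vha-3 rest on the deposited FPKM, whose implied lengths exceed their annotated exons. The scarce a subunits were far below. The gene vha-5 stood above 28.6% of these genes in dopamine and 39.3% in serotonin libraries, vha-7 above 3.40% in dopamine and 7.19% in serotonin libraries, and vha-6 above 2.89% in dopamine and 0.715% in serotonin libraries. Neighbours in this order, such as unc-32 at 78.9 ± 16.6 and vha-17 at 72.9 ± 28.4 FPKM in dopamine libraries, often differed by less than their SD.

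The V1 genes, listed beside V0 and also part of the vha genes that prompted the choice, lay on the same side. All 9 had a positive log2 difference, with a median of 0.93, and for 7 of 9 every dopamine library was above every serotonin library, against 12.3% of all genes tested. As the vha genes were chosen together, nothing is read from that share. The ATP-splitting A subunit gene vha-13 had 3421, 4409 and 4530 normalized counts in dopamine libraries and 1341, 1530 and 2054 in serotonin libraries, and its log2 difference of 1.34 was the highest of the 9. The B subunit gene vha-12, which completes the catalytic head, differed by 0.93. The stalk and regulatory genes vha-8 (E, 1.20), vha-11 (C, 1.15), vha-14 (D, 1.06), vha-10 (G, 0.89) and vha-9 (F, 0.70) also showed no overlap. The H subunit genes overlapped, vha-15 with 2147 ± 878 in dopamine libraries against 1612 ± 199 in serotonin libraries, and vha-18 with 637 ± 167 in dopamine libraries against 642 ± 240 in serotonin libraries (SD, n = 3 each). The geometric mean of the 7 more abundant V0 genes, set apart after their values were seen, was 1.15, 1.17 and 1.13 times that of V1 in dopamine libraries and 1.18, 1.28 and 0.90 times in serotonin libraries. These ranges overlapped.

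A further pair of vha genes encodes accessory proteins of V0. The gene vha-19, the worm form of ATP6AP1, had 2262 ± 293 normalized counts in dopamine and 1262 ± 142 in serotonin libraries, and vha-20, that of ATP6AP2, had 1441 ± 225 in dopamine and 726 ± 19.8 in serotonin libraries (SD, n = 3 each). Neither overlapped between groups, with every dopamine library above every serotonin library, against 12.3% of all genes tested. Both belong to the vha genes that prompted the choice, so nothing is read from this. The rabconnectin genes, whose products promote assembly of V1 on V0, were not among the vha genes and were tested. The gene rbc-1 stood at 17361 ± 2535 in dopamine libraries, against 14416 ± 2858 in serotonin libraries, and missed the threshold (log2 difference 0.28, limma adjusted p = 0.524). The gene rbc-2 stood at 2364 ± 301 in dopamine libraries, against 1356 ± 247 in serotonin libraries, and missed it too (0.81, limma adjusted p = 0.0663). Limma called it once replicate number was added as a block (adjusted p = 0.00701), and it was called by DESeq2 (adjusted p = 0.0281) and after quantile normalization (limma adjusted p = 0.0476), over a range of 0.00701 to 0.611 across the alternatives. Across all tested genes limma called 3.16% higher in dopamine and 6.36% higher in serotonin libraries, which were 498 and 1002 genes. With the block 1068 were higher in dopamine and 1842 in serotonin libraries. With libraries scaled to pan-neuronal genes 165 were higher in dopamine and 3507 in serotonin libraries, and with libraries scaled to ribosomal protein genes 299 in dopamine and 1003 in serotonin libraries.

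Pan-neuronal genes stood higher in dopamine libraries as well. The 16 listed ones, such as the synaptic vesicle genes snb-1 and rab-3, had a median log2 difference of 0.92. Of the 16, 9 were called higher in dopamine libraries by limma, against 3.16% of all genes tested. With the block 14 were, against 1068 of all 15750. Their geometric mean was 5196, 4325 and 6702 in dopamine libraries and 2535, 2310 and 3510 in serotonin libraries. The 7 more abundant V0 genes stood at 0.49, 0.58 and 0.51 of that mean in dopamine libraries and at 0.58, 0.70 and 0.40 in serotonin libraries. Serotonin 3 was lowest and serotonin 2 highest, and the dopamine values lay between them.

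**Figure D3:**
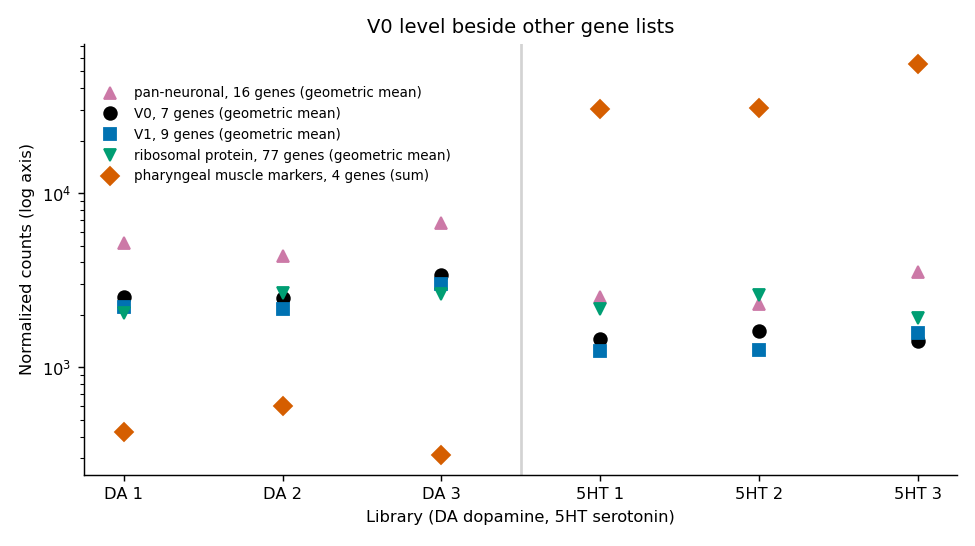
Level of gene lists in each library in normalized counts (log axis), as the geometric mean of the 7 more abundant V0 genes, the 9 V1 genes, 16 pan-neuronal genes and 77 ribosomal protein genes, and as the sum of 4 pharyngeal muscle markers. Dopamine libraries are left of the grey line. The V0, V1 and pan-neuronal means lie higher in the 3 dopamine libraries, the ribosomal protein means overlap, and the muscle markers sum to at least 30208 in serotonin libraries and to at most 597 in dopamine libraries.

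When each library was scaled to the pan-neuronal genes, the median log2 difference of the 10 V0 genes became -0.19 and that of V1 -0.03, while all tested genes shifted to a median of -1.0. The signs of unc-32 (-0.25), vha-4 (-0.17), vha-16 (-0.21) and vha-17 (-0.15) turned, those of vha-1 (0.06), vha-2 (0.26) and vha-3 (0.04) did not, and vha-5 (-2.15), vha-6 (-1.86) and vha-7 (-2.46) moved further down. No member then had every dopamine library above every serotonin library, and 2 had every one below. The share over all genes was not counted with this scaling, so nothing is read from these counts. Scaled to 77 ribosomal protein genes, the V0 median was 0.63 and all 10 signs were as before, with a median of all tested genes at -0.20. How much of each library came from neurons was not measured, and its part in the V0 differences was not tested.

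**Figure D4:**
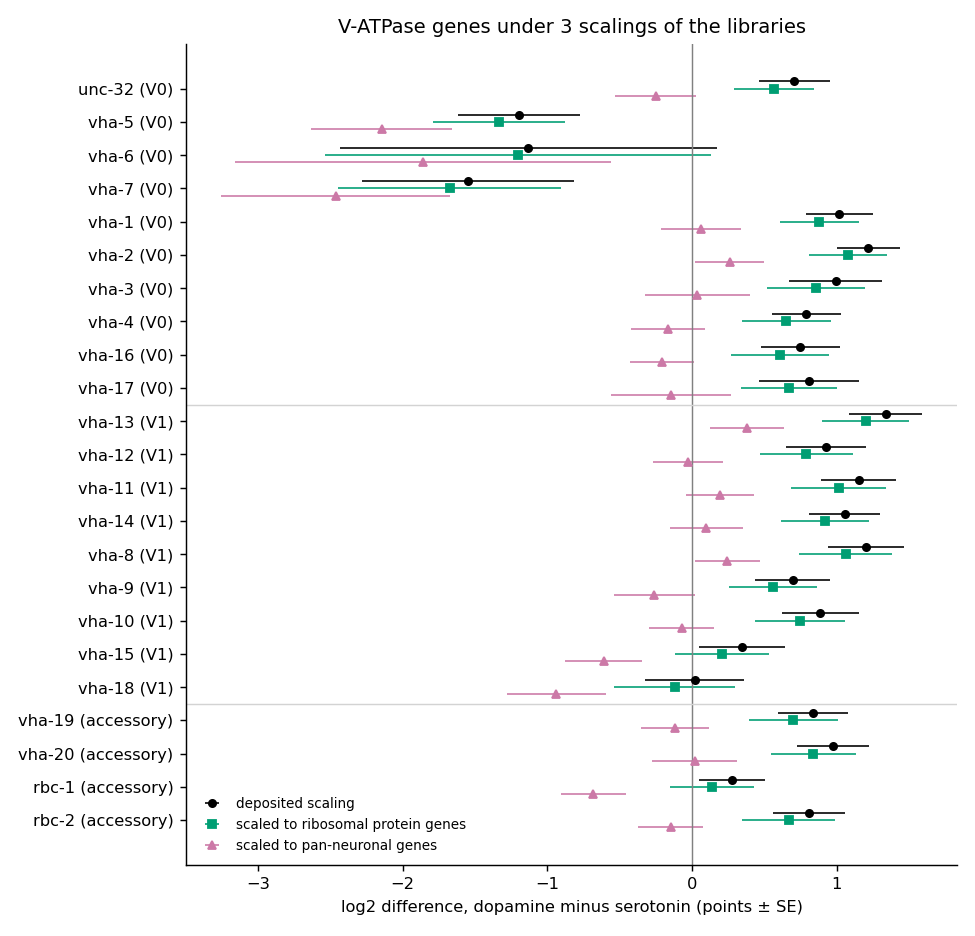
Log2 difference of each V-ATPase gene, dopamine minus serotonin (points with SE bars from limma, 3 libraries per group), with the deposited scaling (black circles), libraries scaled to ribosomal protein genes (green squares) and to pan-neuronal genes (pink triangles). With the deposited scaling 7 of 10 V0 genes lie right of 0, and with pan-neuronal scaling vha-1, vha-2 and vha-3 do.

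Of 38 genes in 4 lists that use or govern the proton gradient or make ATP, 3 were called by limma (7.89%), near the 3.16% higher and 6.36% lower among all tested genes. Of 6 vesicular transporter genes only cat-1, the monoamine transporter shared by both cell types, passed, with 6276 ± 2370 in dopamine libraries against 2351 ± 828 in serotonin libraries (SD, n = 3 each, log2 difference 1.4, limma adjusted p = 0.0199). The cat-1 call did not survive leaving out dopamine 1, dopamine 3, serotonin 2 or both ribosomal RNA-rich libraries, nor pan-neuronal or ribosomal protein scaling (range over the alternatives 4.13e-05 to 0.170). Of 13 lysosomal genes 1 rose and 1 fell in dopamine libraries, or 1 and 2 with the block, and the median was -0.14. The lysosomal membrane gene lmp-2 was 8.89-fold higher, at 399 ± 144 in dopamine libraries against 47.3 ± 29.8 in serotonin libraries (log2 difference 3.15, limma adjusted p = 0.00221). The cathepsin L gene cpl-1 was lower, at 190 ± 158 in dopamine libraries against 605 ± 17.3 in serotonin libraries (-2.11, limma adjusted p = 0.0450), a call lost on leaving out any library other than dopamine 2, by edgeR and under 2 other scalings (adjusted p over the alternatives 0.00521 to 0.147). The cpl-1 difference itself ran from -3.06 to -1.29 over the alternatives, the smallest without dopamine 3.

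None of 9 genes of the lysosomal TORC1 platform passed by limma (median 0.24, or -0.71 with pan-neuronal scaling), and 0 had an unadjusted p under 0.05 or were called by edgeR or DESeq2. With pan-neuronal scaling 4 of the 9 were called lower in dopamine libraries. So were 3507 of all 15750 genes tested, whose median was then -1.0, and nothing is read from the 4. The TORC1 kinase gene let-363 had 7250 ± 1704 in dopamine libraries, against 5793 ± 847 in serotonin libraries. The gene hlh-30, the worm TFEB, a factor known for activating lysosomal genes, had 6210 ± 484 in dopamine libraries, against 5905 ± 1796 in serotonin libraries (log2 difference 0.11, limma adjusted p = 0.839), and was among those 4 (-0.85, limma adjusted p = 0.0322). None of 10 genes of the mitochondrial ATP synthase, the related rotary enzyme that makes ATP, passed either (median 0.11, or -0.83 with pan-neuronal scaling). Again 0 had an unadjusted p under 0.05 and 0 were called by edgeR or DESeq2. Under pan-neuronal scaling 2 of the 10 genes of this enzyme were called lower, beside the 3507 of 15750 over all genes. Its catalytic alpha and beta subunit genes atp-1 and atp-2 were at 5971 ± 1219 and 5072 ± 1332 in dopamine libraries, against 5027 ± 2219 and 4377 ± 495 in serotonin libraries. The receptor gene nhr-31, known to control V-ATPase genes in the excretory cell, had 2938 ± 721 in dopamine libraries, against 1712 ± 601 in serotonin libraries (0.81, limma adjusted p = 0.138, or 0.0368 with the block).

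Across the 6 libraries the mean centred profile of the members was most alike in parn-1 (Pearson r = 0.993), R12B2.9 (0.985), Y67D8C.16 (0.965), D2045.9 (0.961) and R12B2.12 (0.950), 2 protein-coding and 3 non-coding genes. The members themselves reached r of 0.01 for vha-5 to 0.67 for unc-32 with that profile. The scarce vha-6 and vha-7 weigh most in that profile, with SDs of 1.69 and 1.10 over the 6 libraries on the log2 scale, against 0.45 to 0.77 for the other 8 members. With the mean over the 7 more abundant members instead, an alternative chosen after the values were seen, the same 5 genes had r of 0.56 (parn-1), 0.43 (R12B2.9), 0.66 (Y67D8C.16), 0.67 (D2045.9) and 0.65 (R12B2.12). With 6 libraries and 15750 genes these values are a description.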

How the data were processed

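RNA was measured in 3 dopamine and 3 serotonin neuron libraries. Per the labels' protocols, a PicoPure kit was used for RNA isolation and an Ovation kit for libraries. STAR, HTSeq and DESeq2 are named, per the submitters' processing notes, with neither roles nor versions, and no genome build is stated in the labels. The normalized counts are a deposited signal whose values were whole multiples of 1 step per library (all values above 0 within 0.02 of a read), so reads were recovered for edgeR 4.0.16 and DESeq2 1.42.0. The authors also deposited FPKM, whose ratio to the normalized count was constant over libraries. Of the FPKM lengths of 4171 protein-coding genes, 77.5% came within 10% of the annotated exons. Gene names and coordinates are from WBcel235, Ensembl release 115.

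Genes with at least 10 normalized counts in 3 or more libraries (15750) were fitted on log2(normalized count + 1) by limma 3.58.1 (trend, robust) in R 4.3.3, with Benjamini-Hochberg adjustment over all of them and a threshold of 0.05. The gene vha-6 passed that filter with exactly 3 libraries. Nothing says that replicates came from separate cultures, so the p-values reflect only how these libraries varied, possibly for technical reasons. Same-numbered dopamine and serotonin libraries deviated together across genes (correlations 0.433, 0.173 and 0.28 for numbers 1, 2 and 3), so a fit with the number as a block is given where it changes a call. The pairing comes from the data and not from the labels. Members and lists were chosen with earlier results of these data known. Named were all members, V1 and accessory genes, and of other lists up to 4 that passed with the largest change or the 2 with the highest mean. The genes cpr-1, aqp-8, rol-6, dpy-13, ges-1, elt-2, snb-1, rab-3, myo-1, myo-2, tnc-2, tni-4, unc-54, unc-15, myo-3, tnt-2, exc-4, nhr-31, lim-4, unc-86, nhr-25, bli-1 and elt-3 were named as markers after their values were seen. So were vit-2, vit-6, act-5, ifb-2, asp-1, elt-7, pept-1, ceh-6, dpy-7 and col-19. Scripts were tested on simulated data.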

Additional observations from a re-analysis of the deposited data

How the results depend on the processing

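Scaling each library to the pan-neuronal genes turned the V0 and V1 medians. Genes called higher in dopamine and in serotonin libraries then numbered 165 and 3507. The median log2 difference was -0.19 for the V0 genes, -0.15 for the 7 more abundant ones, -0.029 for V1 and -1.0 for all tested genes. With this scaling 0 V0 genes had all dopamine libraries above and 2 all below, and the share over all genes was not counted. Under that scaling the log2 difference was -0.25 for unc-32, -0.17 for vha-4, -0.21 for vha-16, -0.15 for vha-17, -0.65 for let-363, -0.85 for hlh-30 (now called, adjusted p = 0.0322), -0.64 for atp-1, -0.77 for atp-2, -0.68 for rbc-1 and -0.15 for rbc-2. Ribosomal protein scaling gave 299 genes higher in dopamine libraries and a log2 difference of -0.028 for hlh-30, which ranged from -0.015 without serotonin 2 and -0.0018 without serotonin 1 to 0.35 without serotonin 3. Quantile normalization turned vha-6 to 0.27. With the replicate number as a block, 1068 genes were called higher in dopamine and 1842 in serotonin libraries, and beside rbc-2, nhr-31 and the counts given with it above, it changed no other call of limma named in the text. Flipping signs by replicate number as a block of 3 sets left the level differences (4.24, 5.69, 5.47, 0.87, -3.38 and -4.25) with an adjusted p = 0.25 each by the exact permutation test, the smallest possible. For each of these the cause was not tested.

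Without both ribosomal RNA-rich libraries, 294 genes were called higher in dopamine libraries, and 7 V0 genes had all dopamine libraries above and 3 all below. The level differences were then 4.31, 5.80 and 5.51 for unc-32 over vha-5, vha-6 and vha-7, 0.83 for vha-2 over vha-1, and -3.33 and -4.16 for vha-3 from vha-1 and vha-2, with an adjusted p = 0.125 each by the exact sign-flip permutation test, the smallest that 4 libraries allow. On leaving out 1 library the calls ranged over 224 to 455 genes higher in dopamine libraries (lowest without dopamine 3, and 316 without serotonin 2) and over 581 to 1289 higher in serotonin libraries (lowest without serotonin 3, and 637 without serotonin 2). The V0 median ranged from 0.60 to 0.87 and the V1 median from 0.71 to 1.12. V0 genes with all dopamine libraries above numbered 5 to 6, and those with all below 1 to 3 (3 without dopamine 1 and 2 without serotonin 3). With fewer libraries such separation is easier. The share over all genes was not counted with any library left out, so nothing is read from these counts. The level differences ranged over 4.01 to 4.43, 5.51 to 5.80 and 5.28 to 5.59 for unc-32 over vha-5, vha-6 and vha-7, 0.84 to 0.91 for vha-2 over vha-1, -3.42 to -3.34 for vha-3 from vha-1 and -4.33 to -4.20 for vha-3 from vha-2, with an adjusted p = 0.0625 by the exact permutation test, the smallest that 5 libraries allow. A filter of 50 normalized counts left out vha-6 and vha-7, and with 1 to 49 reads per library vha-6 has little precision.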
